A study of Mus musculus with 2 samples.

Results

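Integrins are adhesion receptors at the cell surface, each built of 1 α and 1 β chain. They hold hematopoietic stem cells (HSCs) in the bone marrow niche by binding matrix proteins and counter-receptors on stromal and endothelial cells. Their grip is switched on from inside the cell by talin and kindlin, which act on the β chain tail, and ligand binding in turn starts kinase signalling through FAK and Src family members. The 10 integrin genes described here were taken by name: Itga2, Itga4, Itga5, Itga6, Itga9, Itgav, Itgal, Itgam, Itgb1 and Itgb2. They are 10 of the 26 integrin subunit genes in the annotation, and of 21701 protein-coding genes in all. The subunits of the platelet integrin, Itga2b and Itgb3, were not among them. The rule that lists them uses no measured value, but it was set with earlier results of these data known.

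Chromatin accessibility was read by single-cell ATAC-seq, in which a transposase cuts open chromatin and each nucleus tags its fragments with its own barcode. The young library came from 10-week-old and the aged library from 20-month-old C57BL/6 mice, and the bone marrow cells of both were sorted by the same gate. It took CD150+ cells among those that were c-kit+ and Sca-1+ and lacked CD48, CD34, Flt3, IL-7Rα and lineage markers (written IL-7- Lin-). With 1 library per age there was no replicate check, so no test was made between ages and every interval below is a 95% interval of counting error only. How many mice went into each library was not given in the sources used here. The sums also cannot tell a change in all cells from a change in the share of cells with an open site.

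The libraries held 73711513 (young) and 63744997 (aged) read pairs, and 4887 young and 3404 aged cells were kept, with medians of 9890 and 11020 fragments per cell. Short fragments, below the length of DNA on a nucleosome, made up 59.8% of the young and 55.0% of the aged fragments. A total of 26 barcodes occurred among the kept cells of both libraries. Promoters of 8 HSC marker genes held 152 FPM (fragments per 1000000 fragments in peaks) in young and 150 in aged cells when summed, or 19.02 and 18.7 per gene, against 0.860 and 0.444 per gene for 5 T and NK cell markers and 1.96 and 1.86 for 4 B cell markers. For 6 megakaryocyte markers the values were 23.7 and 21.6 per gene, above those of the HSC list. They were 11.9 and 11.6 for 5 erythroid markers and 3.01 and 3.37 for 10 myeloid markers. No marker was at 0 in either library.

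Promoters were windows of 1 kb on either side of the annotated gene start, so all windows have the same width and their levels can be compared between genes. All 10 promoters passed the minimum of 50 fragments. Accessibility spanned a 5.97-fold range in young and a 6.37-fold range in aged cells, from Itgam at the bottom to Itga4 (young) or Itgb1 (aged) at the top. At 43.8 FPM in young cells the Itga4 promoter was more accessible than 75.8% of all promoters tested, whereas the Itgam promoter at 7.33 FPM exceeded only 17.3%.

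The aged to young ratio was small at most of these promoters. A promoter was counted as higher or lower when its log2(aged/young) was past 0.32 on either side of 0. The promoter of Itga9 was lower in aged cells by this limit, and none was higher. Over all 15934 promoters tested, 9.43% were higher in aged cells and 4.06% lower, so a count of 0 higher and 1 lower among 10 stands near this background. The median log2(aged/young) of the 10 promoters was -0.11, beside -0.05 for all promoters, and 4 of 10 were above 0, beside 35.5% of all.

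**Figure D1:**
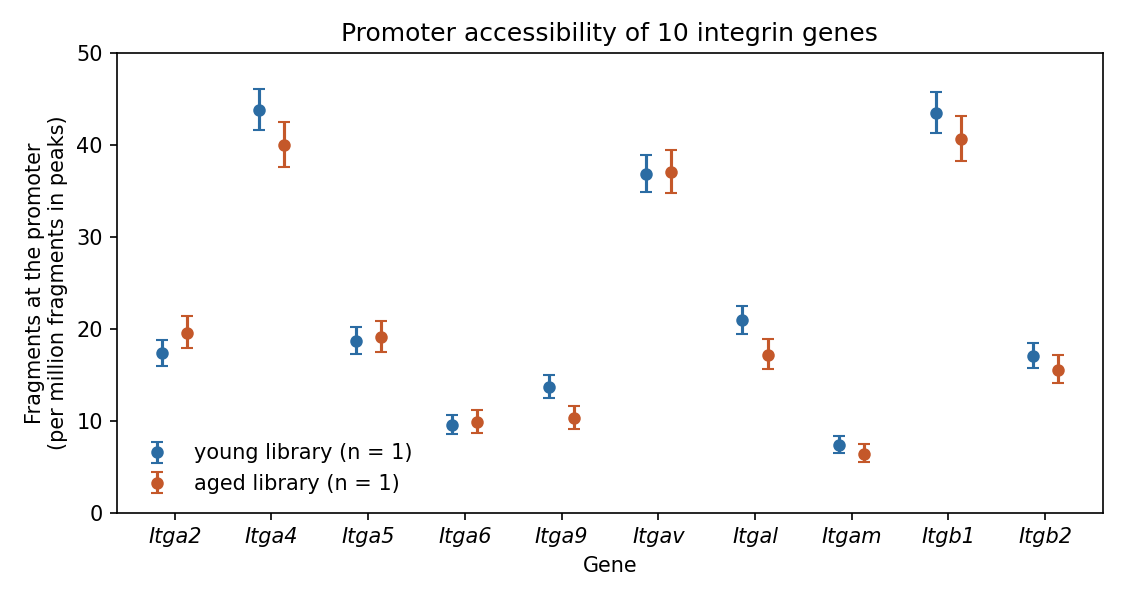
Fragments within 1 kb of the annotated start of each gene (vertical axis, FPM) in the young and the aged library (1 library each); bars are exact Poisson 95% intervals. Itga4, Itgb1 and Itgav lie above 34 in both libraries, and the intervals of the 2 ages lie apart for Itgal and Itga9.

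Itgb1 encodes the β chain shared by most matrix receptors and pairs with the Itga2, Itga4, Itga5, Itga6, Itga9 and Itgav products. Its promoter held 1507 fragments in young and 1063 in aged cells, or 43.5 (41.3 to 45.8) and 40.7 (38.2 to 43.2) FPM. The log2 ratio was -0.10 (-0.21 to 0.02), so its interval held 0 in the main setting. Over the alternatives the ratio ran from -0.14 to -0.01, and scaled to all nuclear fragments its interval lay below 0. In the main setting 35.3% of all promoters had a lower ratio than Itgb1. Itgb2 encodes the β chain of the leukocyte integrins and pairs with the products of Itgal and Itgam. Its promoter held 17.1 (15.7 to 18.5) FPM in young and 15.6 (14.1 to 17.2) FPM in aged cells, a log2 ratio of -0.13 (-0.32 to 0.05).

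Itga4 encodes the α chain of VLA-4, which binds VCAM-1 and fibronectin and is used for homing and retention of HSCs. Its promoter held 43.8 (41.6 to 46.1) FPM in young and 40.0 (37.6 to 42.5) FPM in aged cells, with 1517 and 1046 fragments. The log2 ratio of -0.13 (-0.25 to -0.02) lay below 0 by more than counting error but did not reach the limit of 0.32. Its interval held the median of all promoters, -0.05, and 24.6% of all promoters had a lower ratio. Itga5, whose product is the main fibronectin receptor, stood at 18.7 (17.3 to 20.2) FPM in young and 19.1 (17.5 to 20.9) FPM in aged cells. Itgav, a receptor chain for vitronectin and other RGD proteins, stood at 36.8 (34.8 to 38.9) and 37.1 (34.8 to 39.5) FPM. The log2 ratios of the last pair, 0.03 (-0.14 to 0.20) and 0.01 (-0.11 to 0.13), were nearest to 0 among the 10.

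Itga2, the collagen receptor chain, was the member with the highest promoter ratio. It held 601 fragments in young and 512 in aged cells, or 17.3 (16.0 to 18.8) and 19.6 (17.9 to 21.4) FPM. The log2 ratio was 0.17, with an interval of 0.0017 to 0.35 that only just left out 0. In the order of levels Itga2 was the sixth in young and the fourth in aged cells, although its interval overlapped those of Itga5 and Itgb2 in young cells and those of Itga5 and Itgal in aged cells.

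Itga9 binds tenascin-C, osteopontin and VCAM-1 when paired with the Itgb1 product. Its promoter held 473 fragments in young and 268 in aged cells, or 13.7 (12.5 to 14.9) and 10.2 (9.06 to 11.6) FPM. The log2 ratio of -0.41 (-0.64 to -0.19) was lower than that of all but 2.69% of promoters. It stayed below 0 under every alternative computed, from -0.45 to -0.27, but no longer reached the limit with a window of 5 kb on either side.

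Itgal and Itgam encode the α chains of LFA-1, which binds ICAMs, and of Mac-1, a receptor for complement and fibrinogen on myeloid cells. At the Itgal promoter 725 young and 449 aged fragments gave 20.9 (19.4 to 22.5) and 17.2 (15.6 to 18.8) FPM, and the log2 ratio of -0.28 (-0.46 to -0.11) stood just inside the limit. The Itgam promoter was the least accessible of the 10, with 254 and 167 fragments, or 7.33 (6.46 to 8.29) and 6.39 (5.45 to 7.43) FPM. Its log2 ratio was -0.20 (-0.49 to 0.09), and over the alternatives it ran from -0.79, with thinned cells, to 0.09. Promoters of 10 myeloid marker genes held 30.1 FPM in young and 33.7 FPM in aged cells in sum, with Elane higher (0.76) and Mpo lower (-0.66 on the log2 scale), while their gene bodies held 114 and 109 FPM (-0.07, -0.14 to -0.0042). The promoters of the 5 T and NK cell markers held 4.30 and 2.22 FPM in sum (-0.95, -1.42 to -0.51). Cd4 gave the most of these fragments, 73 in young and 19 in aged cells, and only Cd4 reached the fragment minimum. Ncr1 alone was higher in aged cells, with 3 and 8 fragments. The gene bodies of these markers held 23.8 and 20.6 FPM (-0.21, -0.37 to -0.05), a smaller difference. The sort removed cells with lineage markers, Gr-1, CD4 and CD8 among them, and the part of such cells in the Itgal and Itgam values was not tested. The paper also lists a biotin-labelled antibody to Mac-1, which holds the Itgam product, but does not name it in the lineage mixture. Whether Mac-1 served as a sort marker for these libraries is therefore not clear.

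Itga6, the laminin receptor chain, has its annotated gene start 41362 bp upstream of the start of its most accessible coding transcript. The upstream start held 9.53 (8.53 to 10.6) FPM in young and 9.87 (8.70 to 11.1) FPM in aged cells. At the downstream start, chr2:71786978, the values were 34.4 (32.5 to 36.4) and 35.4 (33.2 to 37.8) FPM. Both starts gave log2 ratios close to 0, 0.05 (-0.19 to 0.29) and 0.04 (-0.08 to 0.17). With a window of 500 bp on either side the upstream start was at 0.40 (0.0016 to 0.81), past the limit of 0.32, and with thinned cells at -0.19 (-0.59 to 0.21). For the other 9 genes the most accessible coding start lay within 158 bp of the annotated gene start.

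**Figure D2:**
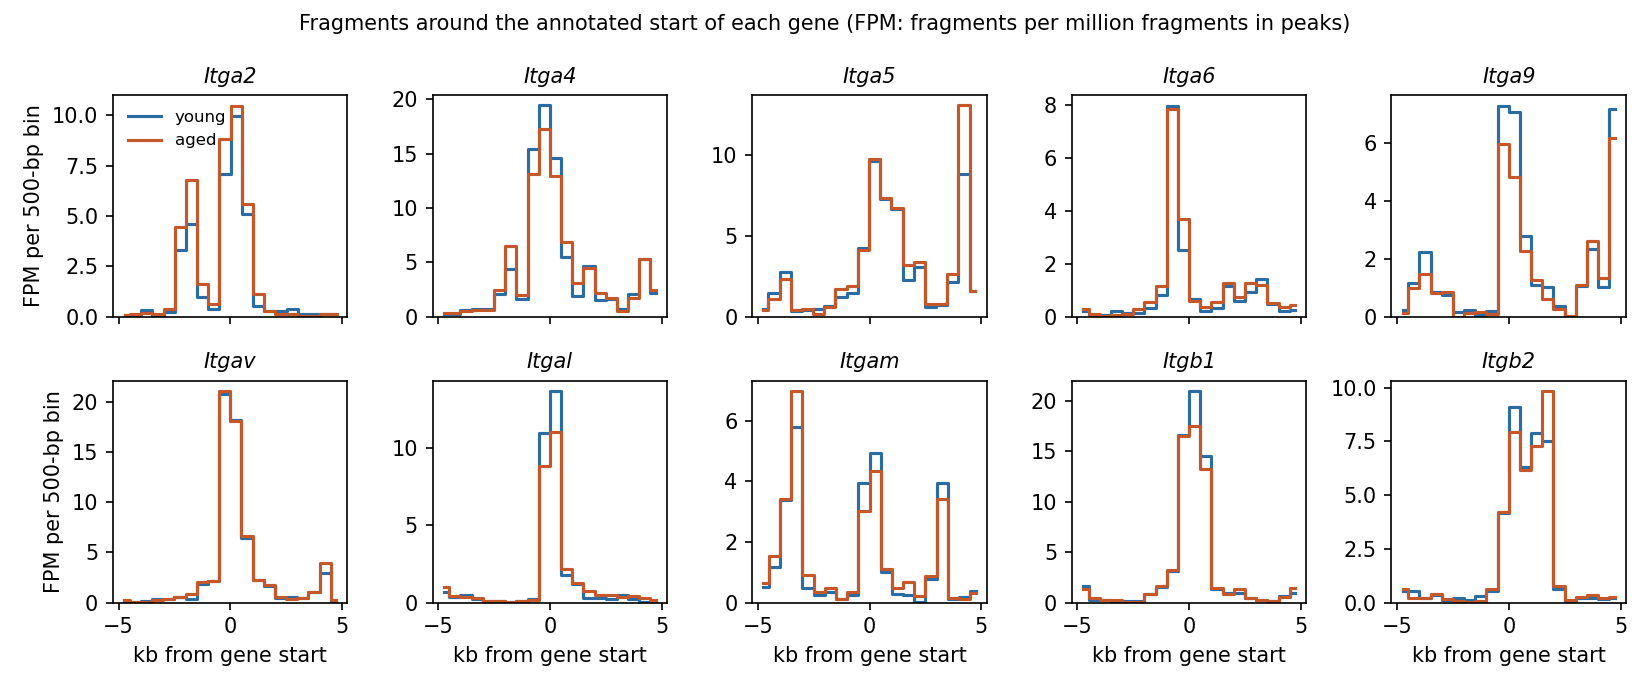
FPM in 500-bp bins (vertical axis) within 5 kb of the annotated start of each gene (horizontal axis, kb, in the direction of transcription) in the young and the aged library. The lines follow each other closely at Itgav, the aged line is lower over the start of Itga9 and Itgal, and at Itga2 and Itga4 the aged line is higher over a second site about 2 kb upstream.

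Among α chain promoters the intervals of Itga4 overlapped that of Itgb1 in both libraries, and in aged cells that of Itgav as well. Itgal, Itga5, Itga2 and Itgb2 formed a middle group whose neighbours overlapped in both libraries. Itga9 stood below that group, with an interval that did not reach it at either age. Itgam stood at the bottom, apart from all the others in both libraries.

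Over gene bodies none of the 10 genes was past the same limit, beside 9.11% of 18395 gene bodies higher and 3.33% lower in aged cells. The median log2 ratio was -0.04 for the members and -0.02 for all gene bodies. Per kb of gene, accessibility was highest at Itga5, with 4.08 FPM per kb in young and 4.22 in aged cells. It was lowest at Itga2 (0.594 and 0.571) and Itgam (0.625 and 0.558).

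Itga6, Itga9 and Itgam were the 3 genes whose gene body interval left out 0, Itga6 above it and the others below. The share of all gene bodies with such an interval was not computed, and intervals narrow as fragments rise. The ratio exceeded that of 79.9% of all gene bodies for Itga6, 14.7% for Itga9 and 14.3% for Itgam. Itga6 went from 6544 to 5467 fragments, or from 189 (184 to 194) to 209 (204 to 215) FPM, a log2 ratio of 0.15 (0.09 to 0.20). Itga9, the longest of the 10 genes at 294.3 kb, went from 11603 to 7829 fragments, or from 335 (329 to 341) to 299 (293 to 306) FPM, a log2 ratio of -0.16 (-0.20 to -0.12). Itgam held 1210 young and 815 aged fragments over its body, or 34.9 (33.0 to 37.0) and 31.2 (29.1 to 33.4) FPM (-0.16, -0.29 to -0.04). The intervals of the other 7 genes held 0.

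Gene bodies were divided further into fragments inside and outside peaks. For Itga6, fragments with an end in a peak gave 0.03 (-0.04 to 0.09), while fragments outside peaks gave 0.41 (0.32 to 0.51), which exceeded 91.8% of 17917 gene bodies. For Itga9 both parts were lower, with -0.17 (-0.22 to -0.12) inside and -0.14 (-0.21 to -0.06) outside peaks. The latter exceeded 20.3% of gene bodies. Itgam was at -0.22 (-0.38 to -0.06) inside and -0.06 (-0.28 to 0.17) outside peaks. Itgal, like Itga6, was near 0 inside (-0.01, -0.15 to 0.14) and above 0 outside peaks (0.26, 0.06 to 0.47). All fragments outside peaks, taken over the genome, had a log2 ratio of 0.10, against which Itga6 was higher and Itga9 lower. With these short fragments alone the Itga6 body ratio was 0.03 and that of Itga9 -0.23. The shares of short fragments differed between the libraries, and their part in the Itga6 value was not tested.

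Outside peaks, the ratio was above 0 in each of 10 equal parts of the Itga6 gene body, from 0.20 to 0.90, and in 4 of them the interval lay above 0. The highest was the eighth part, with 83 young and 118 aged fragments. In Itga9 the parts ran from -0.57 to 0.02, and in 2 of them the interval lay below 0. Itga6 and Itga9 had the highest and the lowest ratio outside peaks of the 10 genes. Their parts divide those same fragments, so they are no separate support, and this division was not planned beforehand. In every other member the parts ran from below to above 0.

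**Figure D3:**
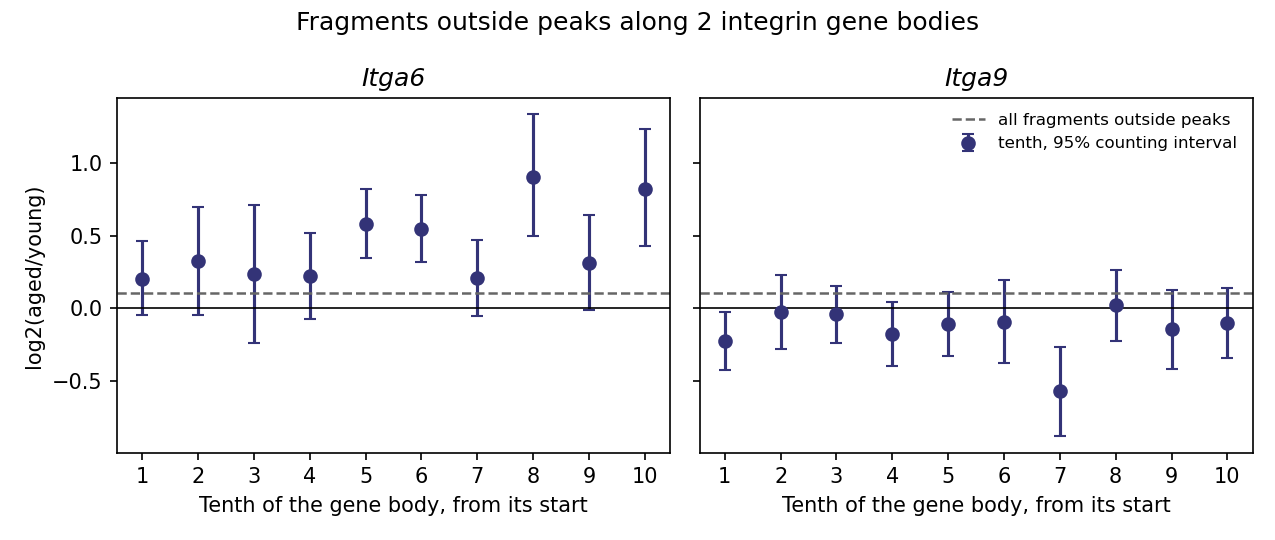
log2(aged/young) of fragments with no end in a peak (vertical axis) in 10 equal parts of the Itga6 and Itga9 gene bodies (horizontal axis, from the gene start); bars are 95% counting intervals and the dashed line is the genome-wide value of 0.10. All 10 parts of Itga6 lie above the dashed line and all 10 of Itga9 below it.

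The Itgal body as a whole gave a log2 ratio of 0.08 (-0.03 to 0.20), and -0.09 with short fragments alone. With the promoter window left out it was 0.27 (0.12 to 0.41), from 796 young and 723 aged fragments, opposite in sign to the promoter's -0.28. For Itgb1 the value without the promoter window was 0.11 (-0.02 to 0.24), and both this interval and that of the promoter held 0. For Itga2 it was -0.12 (-0.23 to -0.0040), with the promoter at 0.17.

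**Figure D4:**
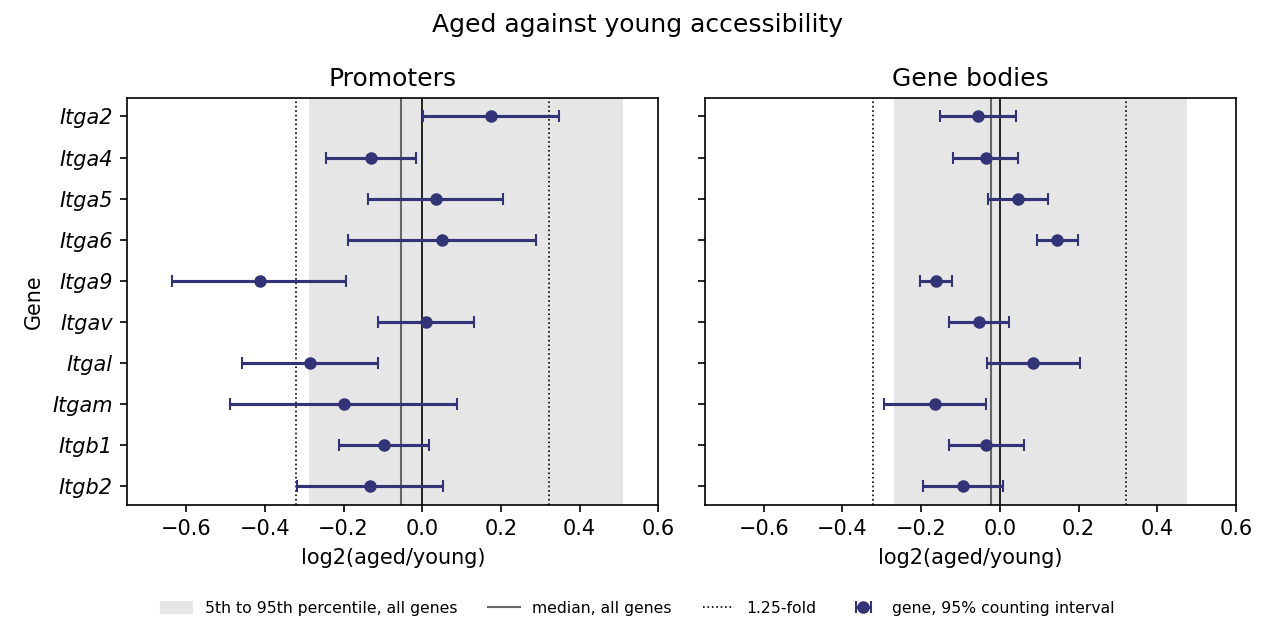
log2(aged/young) of the promoters (left) and gene bodies (right) of the 10 genes (horizontal axis; points with 95% counting intervals), over the 5th to 95th percentile of all genes (grey), their median and lines at 0.32 on either side of 0. The Itga9 promoter, at -0.41, lies outside the grey band and Itgal at its edge, and all 10 gene bodies lie inside theirs.

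Peaks were called afresh in each library and merged, and the 10 loci, each a gene body with 50 kb of flank on either side, held 289 of them, from 13 at Itgb1 to 75 at Itga9. Of these, 247 had at least 50 fragments. A call in either library was enough, so a weak site could enter through the library where it was higher. This holds for all peaks as well as for those of the loci. The intervals of peak ratios do not cover this selection, and the library that called each peak is not given here. In aged cells 26 of the 247 (10.5%) were past 1.5-fold higher and 15 (6.07%) lower, beside 13.0% and 6.51% of all 128434 peaks. These counts depend on the setting: 15 were higher with thinned cells, 24 were lower with each cut site counted, 5 were higher and 5 lower at a minimum of 200 fragments, 33 were lower with no minimum, and 5 were higher and 2 lower at 2-fold. The median log2 ratio was -0.04 for the members' peaks and 0.01 for all peaks.

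In the upstream flanks 12 of 71 peaks (16.9%) were higher and 1 (1.41%) was lower in aged cells, beside the 13.0% and 6.51% of all peaks. In the gene bodies the counts were 11 higher and 10 lower of 113, and in the downstream flanks 3 higher and 4 lower of 63. The zones were not compared with the same zones of other genes, and no difference between them was tested. Peaks of a locus lie on 1 chromosome stretch of the same cells and are not replicates of an age, and flanks hold other genes too.

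In each locus the peak with the highest and the one with the lowest ratio were taken among peaks of at least 100 fragments past 1.5-fold, and the 2 highest and 2 lowest of these are given with their sequence, as sites the results below turn on. Other peaks had ratios below that of the Itgav peak printed here, such as a second Itga9 intron peak, chr9:118881233-118881623 (106 and 40 fragments, -0.98), and a smaller one downstream of Itgam, chr7:128133713-128134015 (51 and 19 fragments, -0.99). Each run is 201 bases around the peak summit, on the plus strand of GRCm38.p6 (the mm10 sequence, from RefSeq). Capitals mark any match to 9 short motif strings searched on both strands: TGANTCA for the AP-1 family, AGATAA for the GATA factors, TGTGGT for the RUNX factors, CCGGAA for the ETS family, GAGGAAG for PU.1, TTGCNNAA for the C/EBP family, TTCNNNGAA for the STAT factors, CAGCTG for the E-box of SCL and TTTCNNTTT for the interferon response element. The PU.1 and ETS strings overlap in the core that all ETS family members share, so a match names no single factor. The windows lie at chr8:128662172-128662372 (23 kb upstream of Itgb1), chr9:118831254-118831454 and chr9:118841217-118841417 (both in introns of Itga9) and chr2:83856347-83856547 (in an intron of Fam171b, in the downstream flank of Itgav).
Itgb1 upstream, higher in aged: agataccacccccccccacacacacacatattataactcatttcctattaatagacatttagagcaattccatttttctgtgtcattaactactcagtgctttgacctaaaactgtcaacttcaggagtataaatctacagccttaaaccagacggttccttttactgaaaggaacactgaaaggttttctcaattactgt
Itga9 intron, higher in aged: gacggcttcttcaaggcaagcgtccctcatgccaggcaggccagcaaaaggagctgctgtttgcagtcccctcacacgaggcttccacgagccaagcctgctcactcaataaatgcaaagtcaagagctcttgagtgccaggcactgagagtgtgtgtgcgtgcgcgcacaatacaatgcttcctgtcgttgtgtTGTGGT
Itga9 intron, lower in aged: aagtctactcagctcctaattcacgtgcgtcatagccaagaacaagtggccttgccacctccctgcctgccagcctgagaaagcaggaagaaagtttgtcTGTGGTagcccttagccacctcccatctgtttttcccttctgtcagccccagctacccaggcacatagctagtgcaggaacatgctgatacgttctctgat
Itgav downstream, lower in aged: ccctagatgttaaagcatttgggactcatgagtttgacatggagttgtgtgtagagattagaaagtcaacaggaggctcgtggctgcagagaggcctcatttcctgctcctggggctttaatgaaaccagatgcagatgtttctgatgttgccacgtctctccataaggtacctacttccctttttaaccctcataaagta

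Both Itga9 windows held the RUNX string TGTGGT, from base 196 in the higher and from base 101 in the lower peak, so these letters occurred at sites that moved in opposite directions. The Itgb1 and Itgav windows held none of the 9 strings. GC content was 37.3% in the Itgb1 window, 55.2% and 52.2% in the Itga9 windows and 45.3% in the Itgav window, around a median of 49.8% for all peaks. Among all 164571 peak windows of this length the RUNX string occurred in 22.4%, and in 7 of the 26 higher and 4 of the 15 lower peaks of the integrin loci. The PU.1 string occurred in 17.6% of all windows, in 1 of the 26 higher and in 5 of the 15 lower peaks. The AP-1 string occurred in 9.88% of all windows, in 3 of 26 and in 2 of 15. The C/EBP string occurred in 8.57% of all windows and 13.4% of the 247 windows of the integrin loci, in 3 of 26 and in 2 of 15. Of the 9 strings, PU.1 had the widest split between these few higher and lower peaks. Shares among all higher or all lower peaks were not computed, and no difference was tested.

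The Itgb1 peak, chr8:128662119-128662461, was intergenic and lay 23364 bp upstream of the gene. It held 62 fragments in young and 106 in aged cells, or 1.79 (1.37 to 2.29) and 4.05 (3.32 to 4.90) FPM. The log2 ratio was 1.16 (0.71 to 1.66), while the largest peak outside the Itgb1 promoter, chr8:128654290-128655211, held 20.6 and 18.1 FPM (-0.19, -0.36 to -0.02) and was not past 1.5-fold. A further site between them and the gene, chr8:128663030-128663539, chosen after its values were seen, held 302 and 320 fragments (0.49, 0.26 to 0.72). Of the 7 upstream peaks of Itgb1 with at least 50 fragments, 1 (14.3%) was higher and 0 were lower, near the 13.0% and 6.51% of all peaks. The upstream flank in sum was at 0.14 (0.06 to 0.21).

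Itga9 held 68 peaks with at least 50 fragments, of which 10 (14.7%) were higher and 8 (11.8%) lower in aged cells. Among its 47 gene body peaks 7 (14.9%) were higher and 7 (14.9%) lower. Over all peaks 13.0% were higher and 6.51% lower. The median of these 47 was -0.21 and 15 lay above 0, beside 51.2% of all peaks. The intronic peak chr9:118841147-118841657 fell from 132 to 47 fragments, or from 3.81 (3.19 to 4.52) to 1.80 (1.32 to 2.39) FPM (-1.07, -1.60 to -0.59). Some 10 kb before it, chr9:118831113-118831662 rose from 73 to 109 fragments, or from 2.11 (1.65 to 2.65) to 4.17 (3.42 to 5.03) FPM (0.97, 0.54 to 1.43). In a split chosen after the values were seen, 6 of the 20 body peaks beyond 200 kb from the start were higher and 4 lower, against 1 and 3 of the 27 before it. The most accessible site outside the promoter, chr9:118925154-118926022 by the start of Ctdspl, stood at 28.2 and 28.3 FPM.

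**Figure D5:**
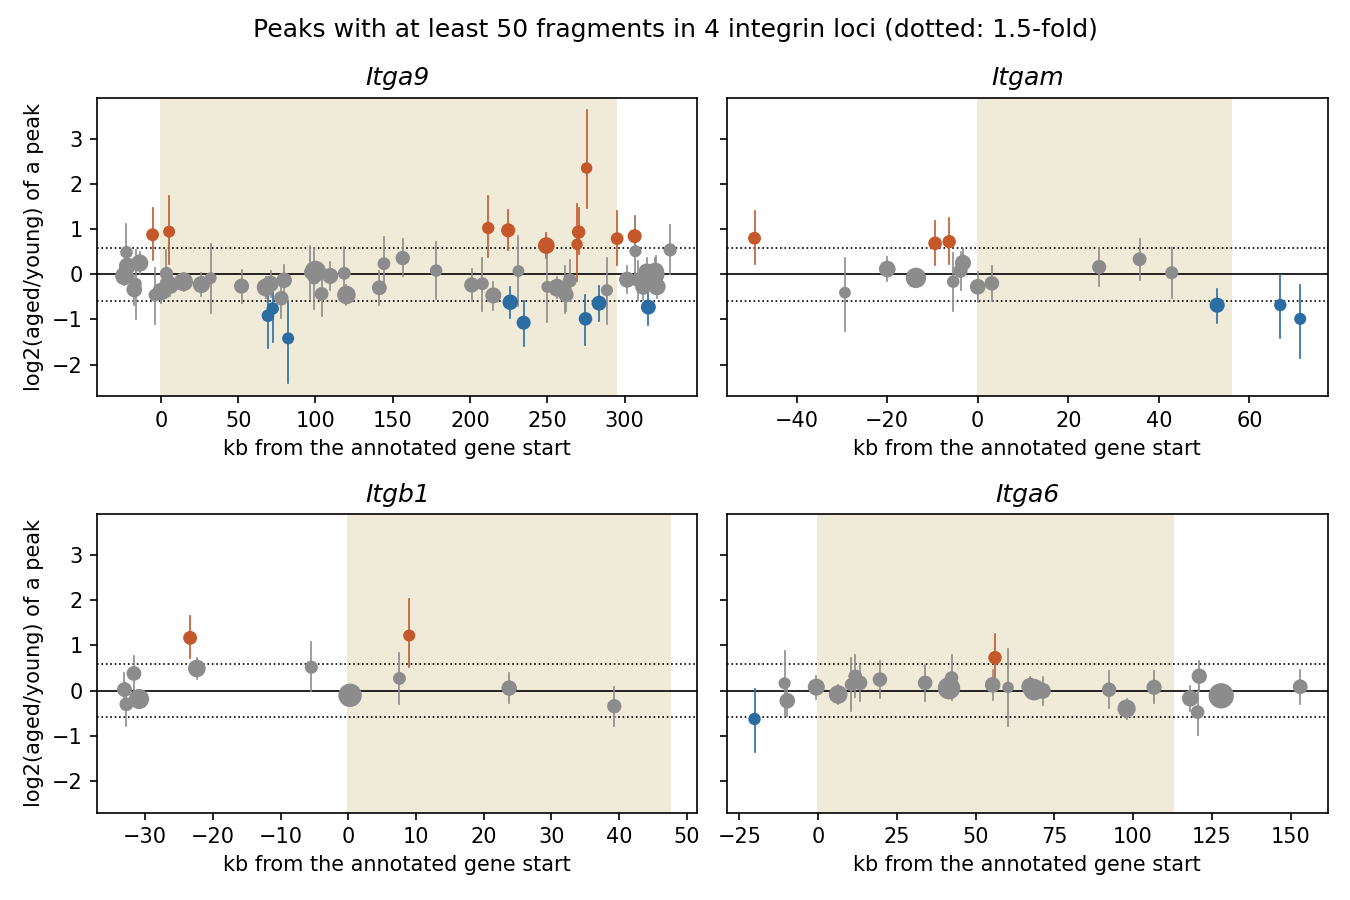
log2(aged/young) of each peak with at least 50 fragments (vertical axis; lines are 95% counting intervals, larger points have more fragments) by its distance in kb from the annotated gene start (horizontal axis, in the direction of transcription) in 4 loci, with the gene body shaded. Orange peaks are past 1.5-fold higher and blue ones lower in aged cells: 10 and 8 at Itga9, 3 and 3 at Itgam, 2 and 0 at Itgb1, 1 and 1 at Itga6.

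At Itgam 3 of 9 upstream peaks were higher and 0 lower. Lower were 1 of 6 body peaks, in an intron near the end of the gene, and 2 of 2 downstream peaks. Over all peaks 13.0% were higher and 6.51% lower, and upstream of all 10 genes 12 of 71 were higher and 1 lower. These Itgam peaks are few, and no difference between sides was tested. The intronic peak chr7:128115188-128115845 fell from 190 to 89 fragments, or from 5.48 (4.73 to 6.32) to 3.40 (2.73 to 4.19) FPM (-0.68, -1.07 to -0.32). At the outer end of the upstream flank, chr7:128013221-128013478 rose from 46 to 61 fragments (0.80, 0.24 to 1.40), though Trim72 is the nearer gene there. The most accessible site, chr7:128048716-128049273, lay 13645 bp upstream and differed little, 21.6 (20.1 to 23.2) and 20.5 (18.8 to 22.3) FPM. The downstream flank of Itgam holds Itgax and part of Itgad, further α chains of leukocyte integrins, and both bodies were lower in aged cells. Itgax held 262 and 158 fragments (-0.32, -0.62 to -0.03) and Itgad 992 and 589 (-0.35, -0.50 to -0.20).

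At Itga4 the site 1936 bp upstream, chr2:79253365-79253615, rose from 101 to 128 fragments, or from 2.92 (2.37 to 3.54) to 4.90 (4.08 to 5.82) FPM (0.74, 0.36 to 1.14), next to a promoter that was slightly lower. The largest upstream site of Itga4, chr2:79227647-79228476, held 17.0 (15.7 to 18.5) and 16.1 (14.6 to 17.7) FPM. At Itga2 none of the 14 peaks with at least 50 fragments was past 1.5-fold, beside 13.0% higher and 6.51% lower of all peaks. A site 1836 bp upstream of Itga2, chr13:114933622-114934250, chosen after its values were seen, held 225 and 233 fragments (0.45, 0.19 to 0.73).

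Itga5 had 5 higher (15.2%) and 1 lower (3.03%) of 33 peaks, near the 13.0% and 6.51% of all peaks. An intronic site, chr15:103361403-103361559, fell from 107 to 48 fragments, or from 3.09 (2.53 to 3.73) to 1.84 (1.35 to 2.43) FPM (-0.74, -1.27 to -0.25). Within 1 kb of it, chr15:103362365-103362692, chosen after its values were seen, rose from 285 to 325 fragments (0.59, 0.36 to 0.83), just past 1.5-fold. The peak chr15:103378355-103378638, 11734 bp upstream, went from 56 to 70 fragments (0.72, 0.20 to 1.26). The Itga5 body as a whole was at 0.05 (-0.03 to 0.12), with 0.01 (-0.08 to 0.09) inside and 0.22 (0.05 to 0.40) outside peaks.

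Itga6, Itgb2, Itgav and Itgal had at most 2 peaks past 1.5-fold in either direction. Of all peaks, 13.0% were higher and 6.51% lower. At Itga6, 1 intronic peak, chr2:71801609-71801985, rose from 62 to 78 fragments (0.73, 0.24 to 1.24). At Itgb2 the peak chr10:77484126-77485007, far upstream and nearest to Fam207a, rose from 313 to 369 fragments, or from 9.04 (8.06 to 10.1) to 14.1 (12.7 to 15.6) FPM (0.64, 0.42 to 0.87), and no Itgb2 peak was lower. At Itgav the lowest peak, chr2:83856113-83856678, fell from 230 to 103 fragments, or from 6.64 (5.81 to 7.56) to 3.94 (3.22 to 4.78) FPM (-0.75, -1.10 to -0.41). At Itgal 1 of 23 peaks (4.35%) was higher, none was lower, and the most accessible one belonged to the start of Dctpp1.

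In 500-bp bins of the flanks, 362 bins had at least 50 fragments. Upstream, 27 of 187 bins were past 1.5-fold higher in aged cells and 1 was lower. Downstream, 21 of 175 were higher and 8 lower. Over the flanks of all genes 8.31% of bins were higher and 5.20% lower, and the median was 0.00 beside 0.07 for the members. With short fragments alone the members' median was -0.02 and 17 bins were higher. This setting also leaves fewer fragments in each bin, and the cause of the change was not tested.

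The bin with the highest ratio lay 5750 bp upstream of Itga6, chr2:71739616-71740115, with 12 fragments in young and 55 in aged cells, or 0.346 (0.179 to 0.605) and 2.10 (1.58 to 2.74) FPM. Its log2 ratio was 2.49 (1.68 to 3.64), and it lies within the long noncoding RNA gene Gm13647. The next lay 7250 bp downstream of Itgav (23 and 42 fragments, 1.23) and 24750 bp downstream of Itgb2 (18 and 33 fragments, 1.23). The lowest lay 49750 bp downstream of Itgav (197 and 78 fragments, -0.92), 7750 bp downstream of Itga9 (70 and 30 fragments, -0.80) and 8250 bp downstream of Itga5 (60 and 26 fragments, -0.78). The first of these lowest bins overlaps the Itgav peak whose sequence is printed above.

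In single cells, each cell was thinned to 3000 fragments in peaks, which left 4788 young and 3271 aged cells (99 and 133 shallower cells were left out). A fragment at the Itgb1 promoter was seen in 12.1% (11.2 to 13.1) of young and 11.6% (10.6 to 12.8) of aged cells, and at the Itga4 promoter in 11.8% (10.9 to 12.8) and 11.1% (10.0 to 12.2). The Itgam promoter had a fragment in 2.30% (1.89 to 2.76) of young and 1.35% (0.979 to 1.80) of aged cells, and the Itga2 promoter in 4.43% (3.86 to 5.05) and 6.05% (5.26 to 6.93). Both values rest on 1 draw of fragments, and thinned to 5000 fragments the intervals of the 2 ages overlapped at both promoters. The mean over all possible draws, added after the data were seen, was 2.16% and 1.79% for Itgam and 4.97% and 5.69% for Itga2. By that mean the Itga9 promoter went from 3.93% to 2.90% and the Itgal promoter from 6.00% to 5.05%. The median difference of the 10 promoters by that mean was -0.39 percentage points, and over all promoters, in the single draw, the median difference was also below 0 (-0.18, beside -0.59 for the members).

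Without thinning, Itgb1 had a fragment in 26.0% of young and 25.3% of aged cells, Itga2 in 11.2% and 13.4%, Itgam in 4.99% and 4.70%, and Itga9 in 9.11% and 7.34%. As a background, promoters of 9 B, T and NK cell genes had a median of 0.251% in young and 0.183% in aged thinned cells, below each of the 10 integrin promoters. Over all promoters the median was 7.48% and 7.21%. A fragment was seen at none of the 10 promoters in 51.0% of young and 53.9% of aged thinned cells, and at 3 or more of them in 2.07% and 2.23%. A cell without a fragment at a promoter cannot be read as closed there at this depth.

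Among other integrin genes, 14 of 16 promoters had at least 50 fragments. Itgae (0.54), Itgb3 (0.40), whose product is the β chain of the platelet and vitronectin receptors, and Itga1 (0.37), a collagen receptor chain that neighbours Itga2, were past 0.32, higher in aged cells. Itga2b (-0.36), the platelet α chain, and Itgax (-0.35, with an interval of -0.91 to 0.19 that held 0) were lower. These were 3 and 2 of 14, beside 9.43% and 4.06% of all promoters, and the median was 0.16, beside -0.05. Over gene bodies 0 of 16 were past 0.32 and higher and 2 were lower, Itgax and Itgad, with a median of 0.00. The bodies of the 3 genes with a higher promoter did not reach the limit, but their intervals lay above 0. They were at 0.11 (0.03 to 0.19) for Itgae, 0.13 (0.08 to 0.19) for Itgb3 and 0.12 (0.04 to 0.20) for Itga1. Of the other collagen receptor chains, the Itga1 promoter was at 0.37 (0.17 to 0.57), Itga11 at 0.25 (0.03 to 0.47) and Itga10 at -0.06 (-0.43 to 0.31), beside 0.17 for Itga2.

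The same shares of all promoters, and 9.11% higher and 3.33% lower for all gene bodies, stand beside the counts of the following lists. None of the 14 promoters tested of inside-out activators and adaptors, a list with talin, kindlin and Rap1 genes, was past 0.32 (median -0.11). Over gene bodies 1 of 16 was higher, the kindlin gene Fermt2 (659 and 684 fragments, 0.46, 0.30 to 0.62), and 0 were lower. Of 24 promoters of outside-in signalling genes, that of Parva, an actin linker that binds the integrin-linked kinase, was higher (166 and 201 fragments, 0.68) and Src lower (48 and 22 fragments, -0.70, -1.52 to 0.04), with a median of -0.08. Over gene bodies 0 of 24 were higher and 0 lower (median -0.05). The Parva body was at -0.11 (-0.20 to -0.02), opposite in sign to its promoter. Among 14 promoters of ligand genes tested, those of the laminin chains Lama4 (528 and 644 fragments, 0.69) and Lama5 (586 and 571, 0.37) and the Itga4 ligand Vcam1 (130 and 125, 0.35, -0.02 to 0.71) were higher and none was lower, with a median of 0.10. Over the 16 gene bodies of the ligand list 3 were higher and 2 lower. The higher ones were Lama5, Vcam1 and Thbs1, and the lower ones, with few fragments, were Vtn (52 and 20, -0.94, -1.80 to -0.20) and Fga (66 and 35, -0.50, -1.14 to 0.10). Laminins are bound by the Itga6 product.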

How the data were processed

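Single-cell ATAC-seq was measured in 2 libraries, 1 of young and 1 of aged mouse HSCs, grouped by the age in the sample labels. With Cell Ranger ATAC, on mm10, the authors mapped the reads, collapsed duplicates, moved the ends to the transposase cut and called cells and peaks library by library. Their deposited fragment lists and barcode tables hold counts, with no normalization, and a mark for barcodes called as cells. No release of Cell Ranger ATAC is given here, since the methods and the layout of the table point to different ones.

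Of the called cells, those whose fragments in the authors' peaks lay between 3000 and 20000 were kept (50069575 young and 38659257 aged fragments). The study's further limits, doublet removal and other choices were alternatives; 205 young and 250 aged cells were marked as doublets and kept. Peaks were called per library on cut sites (Poisson, q under 0.001, 151-bp windows, with the genome-wide or the 10000-bp local rate as background, whichever was higher) and merged, 164571 in all, holding 69.2% and 67.6% of fragments. Each fragment with 1 or both ends in a region added 1 to it. Levels are per 1000000 in-peak fragments (FPM), and log2(aged/young) used a pseudocount of 1 fragment on counts scaled to the mean of both totals. "Past" a fold required at least 50 fragments over both libraries. Counts have exact Poisson, shares exact binomial and ratios binomial-share 95% intervals, which cover counting error only. Genes and annotations came from GENCODE M21 on GRCm38 (chromosomes 1 to 19 and X), sequences from RefSeq GRCm38.p6. Scripts used Python 3.11.15, numpy 2.4.6, scipy 1.17.1 and, for a scaling alternative, edgeR 4.0.16, and were tested on simulated data.

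The members and all lists were chosen with earlier results of these data known. Named were all 10 genes, in each locus the largest non-promoter peak and the highest and lowest peak of at least 100 fragments past 1.5-fold, the 3 highest and 3 lowest flank bins, and list genes past 1.25-fold (at most 6 a list). No test between ages was possible.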

Additional observations from a re-analysis of the deposited data

Results flagged for a closer look

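Barcodes that the authors' pipeline did not call as cells held 382 fragments (young library) and 352 fragments (aged library) at the 10 integrin promoters, from 16 to 72 and from 10 to 66 per gene. These were signal in data that the main comparisons did not use. An alternative setting took in those uncalled barcodes that lay within the in-peak limits. Per kb, promoters exceeded the flanks of the same genes 5.41-fold in the young and 3.78-fold in the aged uncalled barcodes, beside 5.42-fold and 4.99-fold in kept cells. No further flags were possible with 1 library per age.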

How the results depend on the processing

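No paired analysis was possible because each age has 1 library, and for the same reason no library could be left out. Of the summary values recomputed under the alternatives, 138 stayed and 17 moved. Counts stayed when within 1.5 times of the value reported. Medians stayed when within an interval of the ranked values of the genes, peaks or bins. That interval is wide for 10 genes and is not one of counting error, so staying inside it says little. Summary values were not marked for a change of sign, but some medians did change sign. That of the promoters was 0.01 with windows of 5 kb, and those of flank bins and cell shares are given below. Among single genes only the Itga9 promoter was past its limit, and it stayed below 0. Promoters lower in aged cells numbered 3 with short fragments and 3 with thinned cells, and 0 with windows of 5 kb or at 1.5-fold. Promoters higher numbered 1 with thinned cells and 1 with windows of 500 bp. The flank bins had a median of -0.019 and 17 higher with short fragments, and 132 higher and 44 lower at a minimum of 20 fragments. Peaks lower numbered 24 with each cut site counted, 33 with no minimum, 5 at a minimum of 200 fragments and 2 at 2-fold. Peaks higher numbered 15 with thinned cells, 5 at a minimum of 200 and 5 at 2-fold. The cause was not tested, except that stricter limits leave fewer regions. Among single genes 310 values stayed and 10 moved, among them the thinned promoters of Itgam (-0.79) and Itga2 (0.41), the Itga6 promoter in the 500-bp window (0.40) and the short-fragment bodies of Itga2 (-0.16), Itga4 (-0.19) and Itgal (-0.09). By the mean over all possible thinnings, added after the data were seen, Itgam was at -0.29 and Itga2 at 0.20. The median difference in shares of cells was -0.59 percentage points thinned to 3000 fragments, -0.39 by that mean, -0.20 thinned to 5000 and 0.09 not thinned. Depth limits flank bins and intronic peaks, many of which hold under 100 fragments in each library.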
